A study of Mus musculus with 4 samples.

Results

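Aspa, Acy3, Acy1, Acss2, Aacs and Acsl1 encode enzymes that release acetate or amino acids from N-acetylated amino acids or that join acetate, acetoacetate and long fatty acids to coenzyme A. They were taken by symbol from the authors' deposited table of transcript clusters, the units into which the array groups its probes, and each of the 6 matched 1 cluster there, of 35557 clusters on the array and 369 genes that the table names. That table holds only clusters with a fold of at least 1.45 between the groups on these same arrays, and all 6 are listed there as higher in control. The table is two-sided: Sip1 cKO was above control in 22 of its 420 clusters and below it in 398. How the 6 genes could be found therefore set a least size for their difference, and what the arrays add is the size of each difference, its error and its spread between replicates.

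The samples were whole spinal cords of mice at postnatal day 14, of a c57.129 mixed background, each measured on its own array. The 2 Sip1 cKO samples had the genotype Sip1c/c;Olig1-Cre, with both copies of Sip1 floxed, and the 2 control samples were littermates with the genotype Sip1c/+;Olig1-Cre. Sip1 is the older name of Zeb2, which encodes a transcription factor with zinc fingers. Every sample carried Olig1-Cre, which deletes floxed DNA in cells of the oligodendrocyte lineage, and the controls carried 1 floxed copy, so no Cre-free or fully wild-type cord was measured. The comparison asks how expression in the cord differs without Sip1 in that lineage. Because whole cord was measured, fewer oligodendrocytes and less RNA of a gene per oligodendrocyte cannot be told apart. The labels call the replicates biological but do not say whether animals were pooled.

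Myelin is rich in lipid, and an oligodendrocyte that builds it needs large amounts of acetyl-CoA and activated fatty acids. N-acetylaspartate is made by neurons and is cleaved in oligodendrocytes by aspartoacylase, the product of Aspa, into aspartate and acetate, and the loss of this enzyme in people causes Canavan disease, a leukodystrophy. Acetate can be activated to acetyl-CoA by Acss2, the ketone body acetoacetate to acetoacetyl-CoA by Aacs, and long-chain fatty acids to their acyl-CoA forms by Acsl1.

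The stretch of DNA before the start of the gene is shown for 3 members that differ in GC share and in motif matches. These 3 do not cover every kind of upstream sequence found among the 6. The sequences are those of RefSeq on GRCm38.p6, in which all 6 members had an entry, 7 windows in all since Acsl1 has 2 starts. Each line gives the 250 bases before the annotated start, read 5′ to 3′ on the strand of the gene. Aspa lies at chr11:73324638-73324887 on the minus strand, Acy3 at chr19:3986320-3986569 on the plus strand and Acss2 at chr2:155517793-155518042 on the plus strand. Capitals mark matches, on either strand, to the motifs searched: CACCTG, an E-box variant that ZEB factors bind, CACGTG, the canonical E-box, GGGCGG, the GC box, CCAAT and TATAAA.
Aspa: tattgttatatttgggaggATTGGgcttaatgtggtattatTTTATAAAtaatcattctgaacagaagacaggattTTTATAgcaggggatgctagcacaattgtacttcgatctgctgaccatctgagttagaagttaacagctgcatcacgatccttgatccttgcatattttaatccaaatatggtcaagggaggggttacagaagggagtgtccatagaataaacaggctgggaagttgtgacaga
Acy3: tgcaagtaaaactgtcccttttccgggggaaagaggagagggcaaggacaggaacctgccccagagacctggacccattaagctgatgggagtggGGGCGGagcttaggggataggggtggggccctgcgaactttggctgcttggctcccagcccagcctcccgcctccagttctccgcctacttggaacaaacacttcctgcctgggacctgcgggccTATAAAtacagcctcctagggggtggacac
Acss2: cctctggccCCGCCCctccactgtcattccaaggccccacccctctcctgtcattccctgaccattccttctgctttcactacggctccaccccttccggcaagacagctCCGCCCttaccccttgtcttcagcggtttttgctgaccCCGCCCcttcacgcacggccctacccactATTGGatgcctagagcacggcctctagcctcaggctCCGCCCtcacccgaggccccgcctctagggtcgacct
The Aspa window was rich in A and T, with 38.8% GC and 2 CpG pairs, and 9.7% of all 32851 mouse windows of this length had a lower GC share. It held 3 matches to TATAAA, of which 2 overlap each other between 209 and 202 bases before the start, and 1 to CCAAT on the opposite strand. Acy3 had 60.4% GC and 6 CpG pairs, with 1 match to TATAAA from 30 to 25 bases before the start and 1 GC box. Acss2 had 64.0% GC and 13 CpG pairs, with 4 GC boxes and 1 match to CCAAT on the opposite strand. Acy1 (68.0% GC) and the upstream start of Acsl1 (72.0% GC) also held 4 GC boxes each, Acy1 held the only CACGTG, 8 to 3 bases before its start, and Aacs (62.4% GC, 22 CpG pairs) held no match to any motif searched. CACCTG occurred in 1 of the 7 windows, that of the downstream start of Acsl1, 238 to 233 bases before it. Of all windows 17.2% held CACCTG, 6.02% CACGTG, 32.7% GGGCGG, 33.8% CCAAT and 12.4% TATAAA. A match to these letters is a description of the window and no evidence of binding.

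Zeb2 itself read 8.61 and 8.66 on the Sip1 cKO arrays, against 10.29 and 10.47 on the control arrays, and was thus lower where the labels say cKO. The Zeb2 cluster too was named through the authors' table with its limit on fold, so it is no independent check of the labels. Whether the probes of that cluster lie inside the floxed part of the gene was not analysed here, so these values do not measure the deletion itself. All values are log2 intensities after RMA, the authors' summary of the probes of a cluster. A level of one gene cannot be set against that of another on this scale, and only differences between arrays are compared. Differences are Sip1 cKO minus control, tested with limma over all clusters and called at an adjusted p (Benjamini-Hochberg) under 0.05. Of the 6 genes 1, Aspa, was called, as lower, while 0.858% of all clusters and 51.7% of those in the authors' table were called lower. All 6 had an unadjusted p under 0.05 and were lower (limma), against 8.51% of all clusters. The 6 were found through a limit on fold, and this share among the table's clusters was not computed. Both Sip1 cKO arrays read below both control arrays for all 6, as they did for 25.1% of all clusters and 93.1% of the clusters in the table. With 2 arrays against 2, the smallest p of an exact permutation test lies above 0.05, so none is given for single genes. The median log2 change of the 6 was -1.23, against -1.29 for the other 363 named genes and -0.01 for all clusters.

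**Figure D1:**
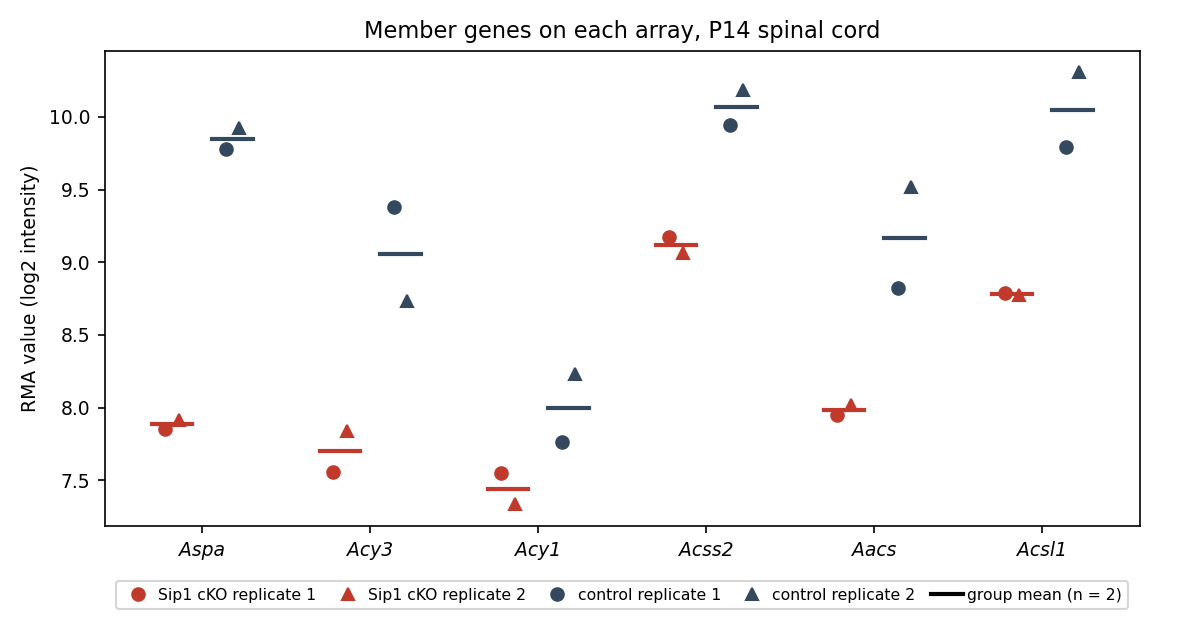
RMA values (log2 intensity, vertical axis) of the 6 genes on each of the 4 arrays, with Sip1 cKO in red to the left of control in dark blue, circles for replicate 1, triangles for replicate 2 and a bar at each group mean (n = 2). The groups do not overlap for any of the 6 genes, the gap is widest for Aspa (7.85 and 7.92 in Sip1 cKO, 9.78 and 9.92 in control) and narrowest for Acy1.

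Among the enzymes that cleave N-acetylated amino acids, Aspa fell in Sip1 cKO to 25.6% of control. It read 7.85 and 7.92 on the Sip1 cKO arrays, against 9.78 and 9.92 on the control arrays. Both groups were tight, and the lowest control array lay 1.86 above the highest Sip1 cKO array. The means were 7.88 ± 0.04 in Sip1 cKO and 9.85 ± 0.10 in control (SD, n = 2 each), a change of -1.97 on the log2 scale with an SE of 0.10 and a 95% interval of -2.24 to -1.69 (limma, adjusted p = 0.0103). The authors' deposited table gives Aspa a linear level of 250 in Sip1 cKO and 937 in control, and a fold of 3.75 that ranks 86 of the table's 420 clusters. The call of Aspa was lost when any 1 of the 4 arrays was left out, in fits where few or no clusters of the whole array were called. The change of Aspa in these fits was -2.04 to -1.89.

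Acy3 encodes aminoacylase III, a relative of aspartoacylase that removes the acetyl group from N-acetylated aromatic amino acids and from mercapturic acids, chiefly known from kidney. It read 7.56 and 7.84 in Sip1 cKO, against 9.38 and 8.73 in control, and was the only one of the 6 genes for which control replicate 1 read above control replicate 2. The groups did not overlap, and the change was -1.36 on the log2 scale with an SE of 0.25 and an interval of -2.01 to -0.71 (limma, adjusted p = 0.127). Without control replicate 1 the change was -1.03 and without control replicate 2 it was -1.68, so the value depended on which control array was kept.

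Acy1 encodes aminoacylase 1, a cytosolic enzyme that frees many amino acids from their N-acetylated form. It read 7.55 and 7.33 in Sip1 cKO, against 7.77 and 8.23 in control. The lowest control array lay only 0.22 above the highest Sip1 cKO array, less than the gap of 0.47 between the control arrays. The change was -0.56 on the log2 scale with an SE of 0.19 and an interval of -1.06 to -0.06 (limma, adjusted p = 0.268), or 67.9% of control. Its fold of 1.47 in the authors' deposited table lies just inside the table's limit of 1.45, at rank 415 of 420. Without control replicate 2 its change was -0.33 and without control replicate 1 it was -0.79, so the choice of control array moved it by more than the SE of the fit.

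The 3 enzymes that join an acyl group to coenzyme A had changes between -1.27 and -0.95, and none was called over all clusters. Acss2, the cytosolic and nuclear synthetase that turns acetate into acetyl-CoA, read 9.17 and 9.07 in Sip1 cKO, against 9.94 and 10.19 in control. The groups stood 0.77 apart at their nearest arrays. Its change was -0.95 on the log2 scale with an SE of 0.13 and an interval of -1.28 to -0.62 (limma, adjusted p = 0.0630), which puts Sip1 cKO at 51.8% of control. With 1 array left out the change was -1.07 to -0.82. Acss2 had the smallest adjusted p after Aspa among the 6.

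Acsl1, which activates long-chain fatty acids for lipid synthesis or oxidation, read 8.79 and 8.77 in Sip1 cKO, against 9.80 and 10.31 in control. The Sip1 cKO arrays differed by only 0.02 and the control arrays by 0.51. The change was -1.27 on the log2 scale with an SE of 0.19 and an interval of -1.77 to -0.77 (limma, adjusted p = 0.0849), or 41.5% of control. Without control replicate 1 the change was -1.53 and without control replicate 2 it was -1.01, so the value depended on which control array was kept.

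Aacs, the cytosolic enzyme that lets acetoacetate enter lipid synthesis without passing through mitochondria, read 7.95 and 8.02 in Sip1 cKO, against 8.82 and 9.52 in control. Its control arrays lay 0.70 apart, the widest gap of the 6 genes, while its Sip1 cKO arrays lay 0.06 apart. The change was -1.19 on the log2 scale with an SE of 0.25 and an interval of -1.83 to -0.54 (limma, adjusted p = 0.150), or 44.0% of control. Without control replicate 1 the change was -1.53 and without control replicate 2 it was -0.84, the widest range of the 6 genes in such fits.

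**Figure D2:**
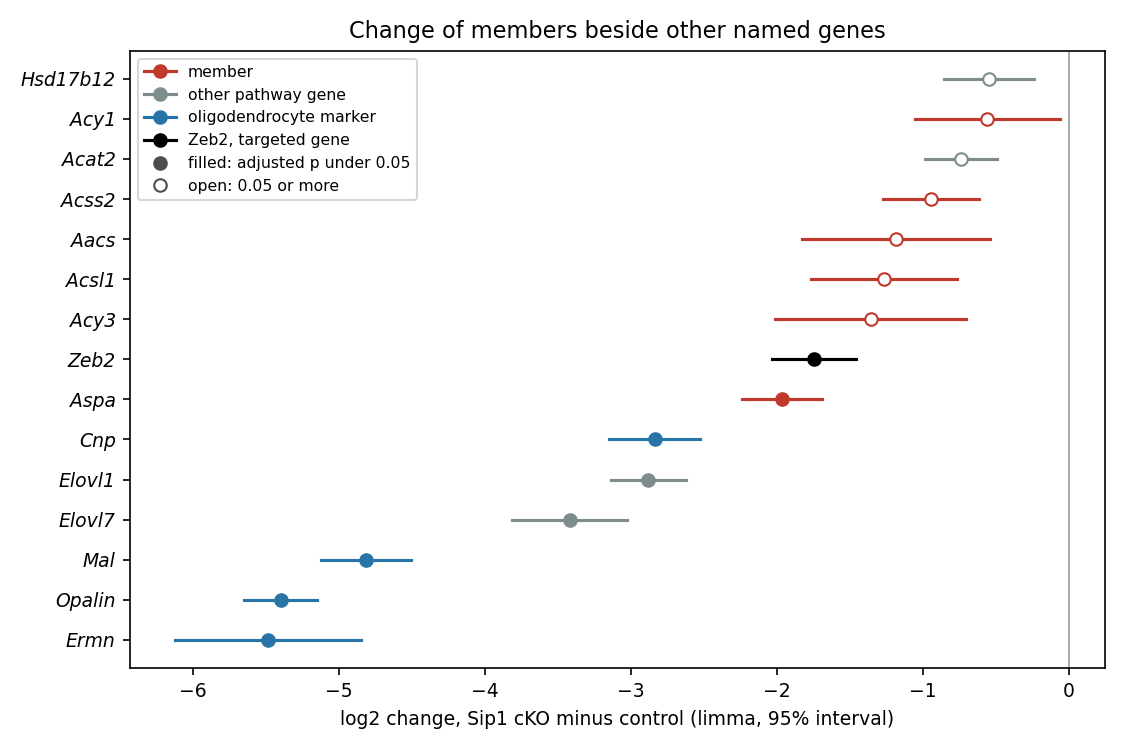
Log2 change (Sip1 cKO minus control, horizontal axis) with the 95% interval of the limma fit for the 6 genes in red, other named genes of the same pathways in grey, 4 oligodendrocyte markers in blue and Zeb2 in black, with filled points at an adjusted p under 0.05. Aspa is the only filled red point, at -1.97, and Cnp, Elovl1, Elovl7, Mal, Opalin and Ermn lie at more negative values than any of the 6 genes.

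Whether Acss2, Acsl1 and Acy3 passed turned on which clusters were tested and, for Acss2 and Acsl1, also on how the spread was estimated. When dim clusters (mean at or below the median of all clusters) were left out, 4 of the 6 genes passed and were lower, against 3.65% of the clusters tested: Aspa, Acss2 (adjusted p = 0.0166), Acsl1 (adjusted p = 0.0264) and Acy3 (adjusted p = 0.0433). The same 4 passed without the unbroken run of 6614 lowest identifiers, none of which is in the authors' table, where 2.07% of clusters passed as lower. With an eBayes trend 3 passed, Aspa, Acss2 and Acsl1, against 1.37% of clusters as lower. Each share is of all clusters tested, while the 6 genes were found through a limit on fold over these arrays. The share of the authors' table that passed was not computed for these fits. The changes themselves were the same in these fits, which altered only the number of clusters tested and the estimate of their spread. Acy1 and Aacs passed in none of the 9 other settings that kept all 4 arrays, with an adjusted p of 0.133 to 0.313 for Acy1 and 0.0520 to 0.173 for Aacs. With any 1 array left out the 6 did not pass, in fits where few or no clusters of the whole array passed. At an unadjusted p under 0.05 (limma), 6 were lower without Sip1 cKO replicate 1 (5.99% of all clusters), 5 without Sip1 cKO replicate 2 (5.29%), 6 without control replicate 1 (8.29%) and 5 without control replicate 2 (9.92%), all of them genes found through a limit on fold over these arrays.

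**Figure D3:**
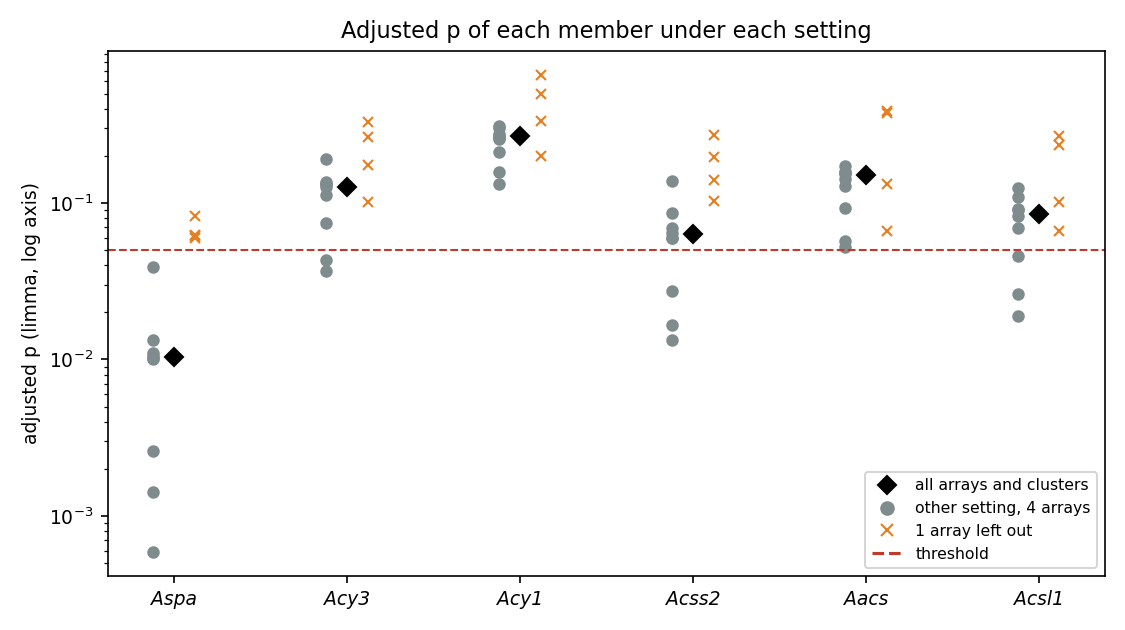
Adjusted p (limma, vertical log axis) of each gene with all arrays and clusters (black diamonds), in the 9 other settings with 4 arrays (grey circles) and with 1 array left out (orange crosses), beside the threshold of 0.05 (dashed line). Aspa lies below the line in every setting with 4 arrays and above it in all 4 fits with 1 array left out, while Acy1 and Aacs never fall below it. With 1 array left out few or no clusters of the whole array passed.

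The difference between 2 genes on the same array is free of any scaling that the array's genes share. Over the 15 pairs, this difference did not overlap between the groups in 9, all 5 pairs with Aspa among them, a share below the 77.3% of all pairs of named genes. Aspa minus Acss2, for example, was -1.32 and -1.15 in Sip1 cKO, against -0.17 and -0.27 in control, so the change of Aspa relative to Acss2 was -1.02. Aspa minus Acsl1 was -0.94 and -0.86 in Sip1 cKO, against -0.02 and -0.39 in control, and Acss2 minus Acy1 was 1.62 and 1.73 in Sip1 cKO, against 2.18 and 1.96 in control. The 6 pairs that did overlap were the 4 of Acy3 with Acy1, Acss2, Aacs and Acsl1, and those of Aacs with Acss2 and with Acsl1. No test is given for these differences.

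The gap between the arrays of a group was narrower in Sip1 cKO than in control for all 6, as it was for 59.9% of all clusters and 81.6% of the named genes. Its median size over the 6 was 0.08 in Sip1 cKO and 0.49 in control. Over all clusters these medians were 0.11 in Sip1 cKO and 0.15 in control, and over the named genes 0.10 in Sip1 cKO and 0.27 in control. Control replicate 2 read above control replicate 1 for 5 of the 6, as it did for 47% of all clusters and 82.1% of the named genes. For the 3 synthetases the gap in control was 0.25 for Acss2, 0.51 for Acsl1 and 0.70 for Aacs. Aspa differed least between the control arrays, by 0.14. What set the control arrays apart was not tested.

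**Figure D4:**
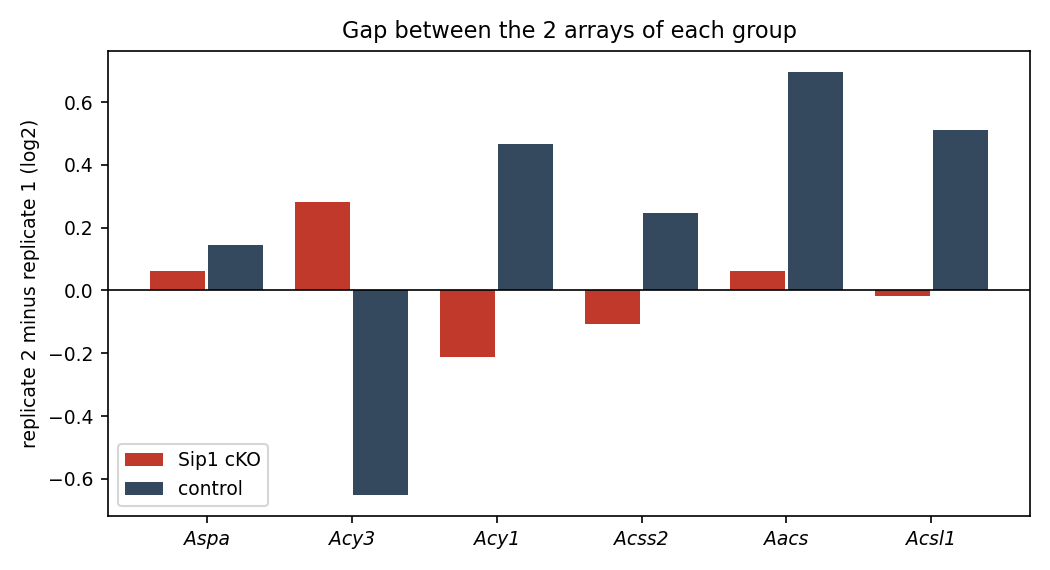
Replicate 2 minus replicate 1 (log2, vertical axis) within Sip1 cKO (red) and within control (dark blue) for the 6 genes. The dark blue bars of Acy1, Acss2, Aacs and Acsl1 rise to between 0.25 and 0.70, that of Acy3 falls to -0.65, and the red bars stay between -0.21 and 0.28.

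Few other genes of these pathways could be named, because a name came only from the authors' table. Of 75 further genes on 5 lists for N-acetylaspartate handling, acetyl-CoA supply, fatty acid activation, fatty acid synthesis and acyl-CoA use, 4 were named, and 2 of those fell, 0 rose and 2 did not pass, close to the 51.7% called lower among all clusters of that table. Elovl7, an elongase of long-chain fatty acids, fell by 3.42 on the log2 scale (7.42 and 7.54 in Sip1 cKO, against 10.73 and 11.07 in control, limma, adjusted p = 0.00691). Elovl1, which makes very long saturated chains for sphingolipids, fell by 2.88 (8.77 and 8.85 in Sip1 cKO, against 11.73 and 11.65 in control, limma, adjusted p = 0.00569). Acat2, the cytosolic thiolase that makes acetoacetyl-CoA from acetyl-CoA and so the same product as Aacs by another route, had a log2 change of -0.74 (limma, adjusted p = 0.0583), with 9.20 and 9.22 in Sip1 cKO and 9.91 and 9.99 in control. Hsd17b12, the ketoacyl reductase of fatty acid elongation, had -0.55 (limma, adjusted p = 0.158). The other 71, among them Nat8l, Acly, Fasn and Slc27a1, were not analysed here.

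Markers of mature oligodendrocytes moved further than the 6 genes. Of 9 on the list 8 were named, through the authors' table, whose limit on fold set a least size for their difference. All 8 were called lower, against 51.7% of the table's clusters and 0.858% of all clusters. The log2 changes of the 8 were -6.32 to -2.84, with a median of -5.52. Their mean log2 value was 6.49 and 7.23 on the Sip1 cKO arrays, against 12.04 and 12.13 on the control arrays. The 4 with the smallest p were Opalin (-5.40, limma, adjusted p = 0.00256), Mal (-4.81), Cnp (-2.84) and Ermn (-5.48). In Sip1 cKO, Opalin read 4.52 and 4.45 and Ermn 5.69 and 5.30, below the array medians of 6.62 to 6.70. Mog (5.74), Mobp (5.61), Mag (6.54) and Cldn11 (6.37) read below these medians on Sip1 cKO replicate 1. How far these genes lay above background there is not known. Mog, Mobp, Mag and Cldn11 read 1.34 to 1.61 higher in Sip1 cKO replicate 2 than in Sip1 cKO replicate 1, while their control arrays lay 0.05 to 0.12 apart. For these 4 markers the Sip1 cKO arrays were thus the wider apart, unlike for the 6 genes. Of the 8, Ermn alone was wider apart in control (10.69 and 11.26) than in Sip1 cKO. Cnp, an enzyme of non-compact myelin, had the smallest change of the 8 at an interval of -3.15 to -2.53, which does not meet the interval of Aspa. The other cell type lists, of progenitors, astrocytes, neurons, microglia, endothelium, meninges, fat and muscle, had no named gene, so levels of those cells were not analysed here.

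For each of the 6, the 3 named genes with the most similar values were found by the Euclidean distance over the 4 arrays after each gene was set to 0 at its control mean. Nearest to Aspa were Tprn (distance 0.07), Sirt2 (0.11) and Dock10 (0.13), and Sirt2, for instance, read 10.87 and 10.91 in Sip1 cKO, against 12.84 and 12.84 in control. Nearest to Acss2 were Vldlr (0.04), Npc1 (0.04) and Efcab14 (0.06), and nearest to Acsl1 were Tmem98 (0.03), Tgfa (0.10) and S100a16 (0.10). Nearest to Aacs were Lpcat2 (0.10), Prrg1 (0.12) and Idi1 (0.12), all with control replicate 2 above control replicate 1 as in Aacs. Nearest to Acy1 were Fscn1 (0.13), Reep3 (0.15) and Gca (0.18). Acy3 had no close neighbour, with Adipor2 (0.29), Dusp10 (0.30) and Tjap1 (0.33) the nearest, all 3 with control replicate 1 above control replicate 2. The distances describe 4 arrays and 369 genes that were chosen by fold on those arrays. They include the gap between the control arrays, so neighbours that share its direction were picked partly for it.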

How the data were processed

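Total RNA of 4 spinal cord samples was measured on the Affymetrix array type MoGene-1_0-st-v1, per the file headers. The authors deposited log2 values from RMA, which corrects background and evens out the arrays, per the submitters' processing notes. For RMA's version, the genome build and the probe annotation, nothing is stated in the labels or headers. The authors' deposited table gives group levels as linear intensity, the same as centred log2 means, and a fold (the larger group mean over the smaller), per the file headers. It leaves out clusters of low raw expression or with a fold under 1.45. Genes were named through clusters with 1 symbol in that table (375 of 420), with names brought up to date from RefSeq.

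All 35557 clusters entered 1 fit of group with limma 3.58.1 (R 4.3.3, lmFit and eBayes, two-sided) and Benjamini-Hochberg adjustment, and the procedure was tested on simulated data. That test set a least recovery only for changes larger than those of the 6 genes, so it does not vouch for changes of their size. The 4 arrays limit the precision. The genes and lists were chosen with earlier results of these data known. The text names the 6 genes, Zeb2, named genes of the pathway lists, up to 4 genes per cell type list by smallest p, and the 3 nearest genes to each of the 6. Some genes that this rule takes are not reported here. Alternatives were a replicate block, leaving out each array, further normalization, filters, spread estimates and thresholds.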

Additional observations from a re-analysis of the deposited data

How the results depend on the processing

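Each of the 6 log2 changes kept its sign in every setting run, and the log2 ratio in the authors' deposited table differed from each by less than the SD of the control arrays. No gene of the 6 had several clusters, so the mean of a gene's clusters gave no value of its own. Of the 6 genes 1 passed with all arrays and clusters, 4 passed with dim clusters left out and without the lowest identifiers, and 3 passed with an eBayes trend and at an adjusted p under 0.1. The changes that newly passed were -1.36 for Acy3 (dim clusters left out, or without the lowest identifiers), and -0.95 for Acss2 and -1.27 for Acsl1 (in those settings and with the trend). Leaving out 1 array gave 0 of the 6 in each case, 0 to 2 of the 4 other pathway genes, 0 to 59 lower and 0 to 2 higher clusters, and Aspa at -2.04 to -1.89 with its call lost. These fits take the spread of the array left alone from the other group. Lower clusters, 305 in all, numbered 649 with dim clusters left out, 487 with the trend, 600 without the lowest identifiers and 553 at 0.1. Higher clusters, 78 in all, numbered 244, 116, 218 and 159 in those settings and 24 with identical rows tested once. With the replicate number as a block, 110 clusters were lower and 1 higher, and of the 6 genes Aspa alone passed (adjusted p = 0.0389). The block changed no call among the 6. The deviations of arrays with the same number from their group means correlated at r = 0.0764 across clusters, and with only 2 such pairs this does not settle whether a number marks a shared litter. The labels give the number alone.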
